A study of Homo sapiens with 30 samples.

Results

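Ribosomes are made in the nucleolus, and 40 genes of that work were followed here through loss and return of the transcription factor FOXM1 in OPM2 and Delta47, cell lines from human multiple myeloma. The members were chosen by symbol, as genes of ribosomal RNA synthesis and processing that are typical targets of MYC. All 40 were found among the 16407 genes of the OPM2 table and the 17286 genes of the Delta47 table. All 40 also passed the filter on low values in each line (a value of 1 or more in at least 3 libraries), beside 10309 genes tested in OPM2 and 11001 in Delta47.

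RNA polymerase I copies the ribosomal DNA into a long precursor, which is modified by small nucleolar ribonucleoproteins (snoRNPs), cut, and folded with proteins into the small and the large subunit. Box C/D snoRNPs guide ribose methylation and H/ACA snoRNPs guide pseudouridylation. MYC is known to drive many genes of this pathway, and myeloma cells, as malignant plasma cells, make and secrete large amounts of immunoglobulin. FOXM1 is best known as an activator of genes of the late cell cycle.

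Each line had an unedited group (WT) and a pair of knockout groups, KO1 and KO2, each grown from a single clone after Cas9 ribonucleoprotein had been directed at exon 2 of FOXM1. In OPM2 the KO1 clone was also sequenced with an empty vector (KO1EV) and with a vector for the FOXM1c isoform (KO1R). In Delta47 the KO2 clone was sequenced with the FOXM1c vector (KO2R), and its empty-vector group was not analysed here. Vector cells had been sorted for GFP, and every group grew in the same serum-supplemented RPMI medium. Each of the 9 groups had 3 libraries. A difference between a clone and WT cannot be told apart from a property of that clone, and the labels do not state whether the 3 libraries of a group were separate cultures, so p-values measure a spread between libraries that may be technical.

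The OPM2 values were FPKM (fragments scaled to transcript length and to the size of the library) and the Delta47 values were the authors' expression value, for which no unit was given. Column totals were 510776 to 566016 in OPM2 and 534185 to 633778 in Delta47, which are sums of scaled values, so no depth can be read from them. FOXM1, the edited gene, had 175.26 to 176.8 FPKM in WT of OPM2, 91.24 to 93.28 in KO1, 57.11 to 69.73 in KO2, 105.33 to 108.77 in KO1EV and 262.89 to 291.72 in KO1R. In Delta47 it had 87.1 to 90.85 in WT, 46.09 to 49.78 in KO1, 45.35 to 47.11 in KO2 and 94.37 to 102.44 in KO2R. The plasma cell markers SDC1, TNFRSF17, IRF4, PRDM1, XBP1, SLAMF7, MZB1 and CD38 were at 8.25 or more in every library of both lines, and FCRL5 was at 0.42 or less. Marker levels moved with the groups. SLAMF7 had 95.23 to 97.47 in WT of Delta47, 32.88 to 34.15 in KO1 and 13.96 to 14.66 in KO2, and in OPM2 KO2 it had 415.38, 408.73 and 192.6 FPKM. The summed markers of B, T, myeloid, epithelial, stromal and endothelial cells were 2.04 to 3.48 FPKM in OPM2 (13 genes in the table). In Delta47 their sum (14 genes) moved with the clones, from 8.64 to 9.71 in WT and 13.8 to 13.9 in KO1 to 26.8 to 27.2 in KO2 and 27.7 to 29.7 in KO2R. PECAM1 (1.12 to 15.58), EPCAM and KRT18 were above 1 in every Delta47 library, no marker was at 0 in all of them, and their part in the results below was not tested.

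A pair of OPM2 libraries stood apart from the rest of their groups, KO2 replicate 3 and KO1EV replicate 3, and they bear directly on the ribosome genes. OPM2 counts are therefore given with them and without them. They were left out after their values were seen, which leaves KO2 and KO1EV with replicates 1 and 2. SE and adjusted p without them follow in part from that choice. The Delta47 groups held no library that stood apart in this way.

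The core E-box, the letters CACGTG that MYC and its partner MAX are known to bind, was searched from 250 bases before to 50 after the start of each gene (RefSeq, GRCh38.p14). The motif is its own reverse complement, so that a search covers both strands. It lay in the window of 13 of the 33 members that had one (39.4%), against 8.77% of the 27305 genes with a window and 13.4% of the genes tested in either line. Since the members were chosen as typical targets of MYC, this share is no independent evidence about them. NOP58, RRP12, BOP1, RRS1, RRP1B, NOLC1 and DDX18 had no window. The stretches below belong to members that the results turn on, with the motif in capitals, 5′ to 3′ on the strand of the gene.

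UTP20 (chr12:101280083-101280112, plus strand): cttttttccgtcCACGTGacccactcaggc

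RRP9 (chr3:51941892-51941921, minus strand): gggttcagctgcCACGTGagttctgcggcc

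NOP2 (chr12:6568242-6568268, minus strand): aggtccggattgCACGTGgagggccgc

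LYAR (chr4:4290068-4290097, minus strand): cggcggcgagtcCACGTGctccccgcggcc

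MRTO4 (chr1:19251807-19251836, plus strand): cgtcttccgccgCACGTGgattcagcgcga

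PES1 (chr22:30591880-30591909, minus strand): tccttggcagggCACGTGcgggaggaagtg

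FBL (chr19:39846356-39846385, minus strand): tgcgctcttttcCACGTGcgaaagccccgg

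NOP10 (chr15:34343130-34343159, minus strand): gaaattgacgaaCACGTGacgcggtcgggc

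DDX21 (chr10:68956604-68956633, plus strand): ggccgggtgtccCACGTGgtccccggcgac

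The motif of RRP9 began 5 bases before the start site and that of UTP20 10 bases before it, while those of FBL and MRTO4 began 7 and 15 bases after it. NOP10 held a second match, 170 bases before its start. The matches are a description of these letters and do not show that a factor binds there. Among the members that hold the motif are those that differed most between OPM2 libraries (UTP20 and RRP9) and 1 that hardly differed (DDX21). In KO1 of OPM2 the median log2 fold change against WT was 0.31 over the 13 members with the motif and 0.35 over the 20 with a window and no motif. In Delta47 the medians were −0.02 and −0.01 in KO1 against WT, 0.01 and 0.08 in KO2 against WT and −0.22 and −0.04 in KO2R against KO2. In OPM2 KO2 replicate 3, against the other KO2 libraries, they were 0.82 and 0.83.

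In OPM2 the members differed most between libraries of the same group. KO2 replicate 3 exceeded the mean of KO2 replicates 1 and 2 in 39 of 40 members and 6003 of 10309 tested genes. The median difference on the log2(FPKM + 1) scale was 0.83 over the members, against 0.09 over all tested genes. KO1EV replicate 3 exceeded the mean of the other KO1EV libraries in 38 of 40 members and 5991 of 10309 tested genes. Here the median difference was 0.45 over the members, against 0.04 over all tested genes. The other 123 ribosome biogenesis genes listed moved likewise, with medians of 0.60 and 0.31.

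UTP20, a very large scaffold protein of the small subunit processome, differed most; it and the genes of this paragraph were chosen after their values were seen. UTP20 had 2.05, 2.07 and 9.55 FPKM in KO2 replicates 1, 2 and 3, and the KO1EV replicates had 3.43, 3.81 and 7.68. RRP9, a snoRNP protein needed for early cleavage of the precursor, had 3.9, 3.6 and 13.67 FPKM in the KO2 libraries and 7.91, 7.18 and 13.47 in those of KO1EV. In each case replicate 3 was above every WT, KO1 and KO1R library, whose highest values were 5.35 FPKM for UTP20 and 7.87 for RRP9. NOP16, a large subunit factor, had 12.37, 9.55 and 32.96 FPKM in KO2, and BOP1, of the complex it forms with PES1 and WDR12, had 17.26, 15.93 and 46.27.

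Some members differed little between these libraries, in KO2 or in KO1EV. NOB1, the endonuclease that trims the end of the small subunit RNA, had 71.75, 71.76 and 71.31 FPKM in KO2, and 80.64, 80.38 and 75.72 when KO1 carried the empty vector. DDX21, an RNA helicase, had 94.14, 98.75 and 96.71 FPKM in KO2. In KO1EV, NOP10, the smallest H/ACA protein, had 96.45, 99.1 and 95.19 FPKM, so replicate 3 was not above the others, and FBL, the methyltransferase of box C/D snoRNPs, had 412.85, 398.58 and 411.08. In KO2, however, replicate 3 was the highest for both, with 82.38, 88.06 and 112.15 FPKM for NOP10 and 345.32, 351.71 and 500.63 for FBL.

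Other genes moved with these libraries. MYC went the opposite way to the members, at 191.94, 190.93 and 135.29 FPKM in the KO2 libraries and 196.93, 193.73 and 150.41 in those of KO1EV. HSPA8, a constitutive chaperone, reached 1495.33 FPKM in KO2 replicate 3 from 352.36 and 349.71 in the others, and to 1416.37 in KO1EV replicate 3 from 766.91 and 759.53. DDIT3, which encodes the stress factor CHOP, was at 7.04 FPKM in KO2 replicate 3 beside 79.34 and 81.09, and at 9.45 in KO1EV replicate 3 beside 39.26 and 38.2. The part of these genes in the ribosome result was not tested.

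**Figure D1:**
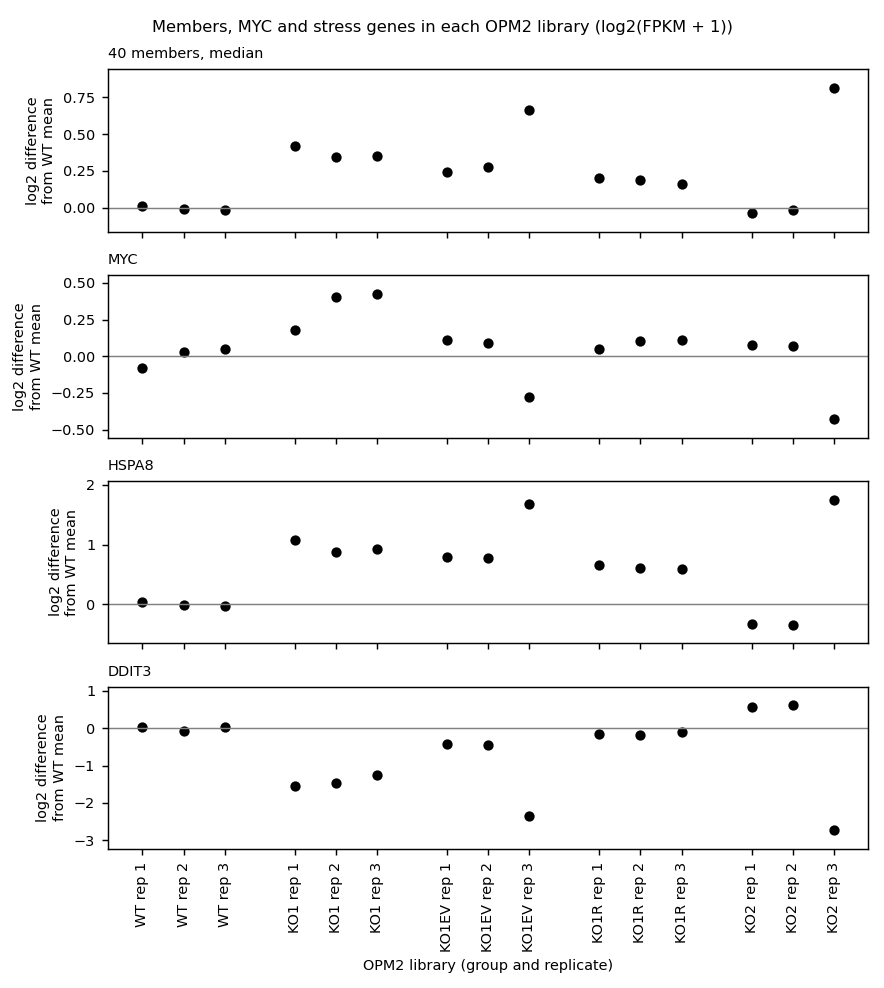
Difference of each OPM2 library from the WT mean (log2(FPKM + 1), y axis) for the median of the 40 members, MYC, HSPA8 and DDIT3, with 1 point per library and 3 libraries per group (x axis). Replicates 3 of KO1EV and KO2 are the highest for the members (0.66 and 0.81) and HSPA8 and the lowest for MYC and DDIT3, while KO2 replicates 1 and 2 lie at the WT level for the members (−0.04 and −0.02).

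KO1 was compared with WT in OPM2 to ask how loss of FOXM1 went with ribosome genes, and nearly all members were higher in KO1 by a small amount. The median log2 fold change was 0.35 over the members and 0.08 over all tested genes, and 39 of 40 members had a positive value (−0.04 to 0.77, SE 0.05 to 0.38). Of the 10309 tested genes, 6377 had a positive value. In 35 of 40 members every KO1 library was above every WT library, which held for 39.1% of all tested genes. With a spread shared by the whole line, the test called 2 members higher (14.5% of all tested genes were called higher) and 0 lower (6.72% of all). At an unadjusted p below 0.05 limma gave 13 members higher and 0 lower. No share over all tested genes was taken for counts at an unadjusted p, here or below. They are therefore not read as results about the members.

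The 2 called members were LYAR and NOLC1. LYAR, a nucleolar protein of proliferating cells, had 24.98, 21.5 and 21.81 FPKM in WT and 39.98, 35.3 and 34.3 in KO1. Its groups did not overlap, with a log2 fold change of 0.66 ± 0.21 (SE; adjusted p = 0.0369). NOLC1, a chaperone of snoRNPs, had 66.89, 65.47 and 64.61 FPKM in WT and 96.03, 92.02 and 90.0 in KO1, again without overlap (0.49 ± 0.14, adjusted p = 0.0277). Neither was called when any 1 library of KO1 or WT was left out (adjusted p 0.0639 to 0.112), although their fold changes stayed between 0.47 and 0.73.

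Without KO2 replicate 3 and KO1EV replicate 3 the same comparison called 35 of 40 members higher and 0 lower, where 38% of all tested genes were called higher and 20.9% lower. The fold changes were the same, since KO1 and WT kept all libraries, and the SE fell to between 0.04 and 0.09. With only KO1 and WT in the fit, 34 members were called higher (35.4% of all tested genes) and 0 lower (19.1% of all). The largest value without the 2 libraries was that of NOP2, a methyltransferase of the large subunit RNA, at 0.77 ± 0.06 (adjusted p = 1.32e-07). NOP2 had 26.29, 28.26 and 29.46 FPKM in WT and 48.77, 46.16 and 50.37 in KO1. RRP9 followed at 0.66 ± 0.07 (adjusted p = 7.5e-07). MRTO4, a stand-in for a stalk protein on the immature large subunit, was higher by 0.61 ± 0.05 (adjusted p = 1.33e-07). The 5 members not called were WDR74, DDX18, NPM1, FBL and DDX21, at −0.04 to 0.10.

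By role, the medians in KO1 against WT were 0.41 for RNA polymerase I, 0.44 for box C/D snoRNPs, 0.26 for H/ACA snoRNPs, 0.32 for the small subunit, 0.44 for the large subunit and 0.28 for the abundant nucleolar proteins. Within a role the members still differed. UBTF, the factor that opens ribosomal genes for polymerase I and the highest of its group by FPKM, had 39.2, 41.37 and 41.14 FPKM in WT and 54.8, 54.42 and 53.53 in KO1. FBL had 366.4, 385.62 and 396.47 FPKM in WT and 373.82, 388.83 and 388.15 in KO1, so its libraries overlapped (0.00 ± 0.11). NPM1, the most abundant member, had 744.5, 674.74 and 653.24 in WT and 747.03, 683.1 and 705.25 in KO1, which also overlapped. NPM1 has near-identical pseudogene copies, and how the authors' counting treated them is not given in the sources used here.

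MYC itself had 172.69, 186.25 and 188.48 FPKM in WT and 206.67, 241.39 and 245.13 in KO1, without overlap. Its log2 fold change of 0.34 ± 0.13 was not called (adjusted p = 0.0852), and it was called without the 2 libraries (0.34 ± 0.05, adjusted p = 9.3e-05). Of 22 MYC targets outside the nucleolus, 1 was called higher and 0 lower in KO1, with a median of 0.29; without the 2 libraries 15 were higher and 4 lower. Of the 123 other ribosome biogenesis genes, 6 were called higher and 2 lower, with a median of 0.23, and 87 and 9 without the 2 libraries. Over all tested genes 14.5% were called higher and 6.72% lower, and 38% and 20.9% without the 2 libraries. UTP14A, of the small subunit processome, was higher by 0.44 ± 0.10 (adjusted p = 0.00723).

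The members that were higher in KO1 were largely those that stood out in KO2 replicate 3. Across the 40 members, the fold change of KO1 against WT and the deviation of KO2 replicate 3 had a Spearman rho of 0.84, and the rho over all tested genes was 0.63. These values share no library, but genes are not independent of each other. In KO1 the stress genes lay on the same sides as in KO2 replicate 3. HSPA8 had 811.28 to 937 FPKM in KO1 and 435.25 to 455.04 in WT, and DDIT3 had 17.43 to 21.45 in KO1 and 50.26 to 54.29 in WT. MYC did not follow this likeness, being above WT in KO1 and below WT in KO2 replicate 3.

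**Figure D2:**
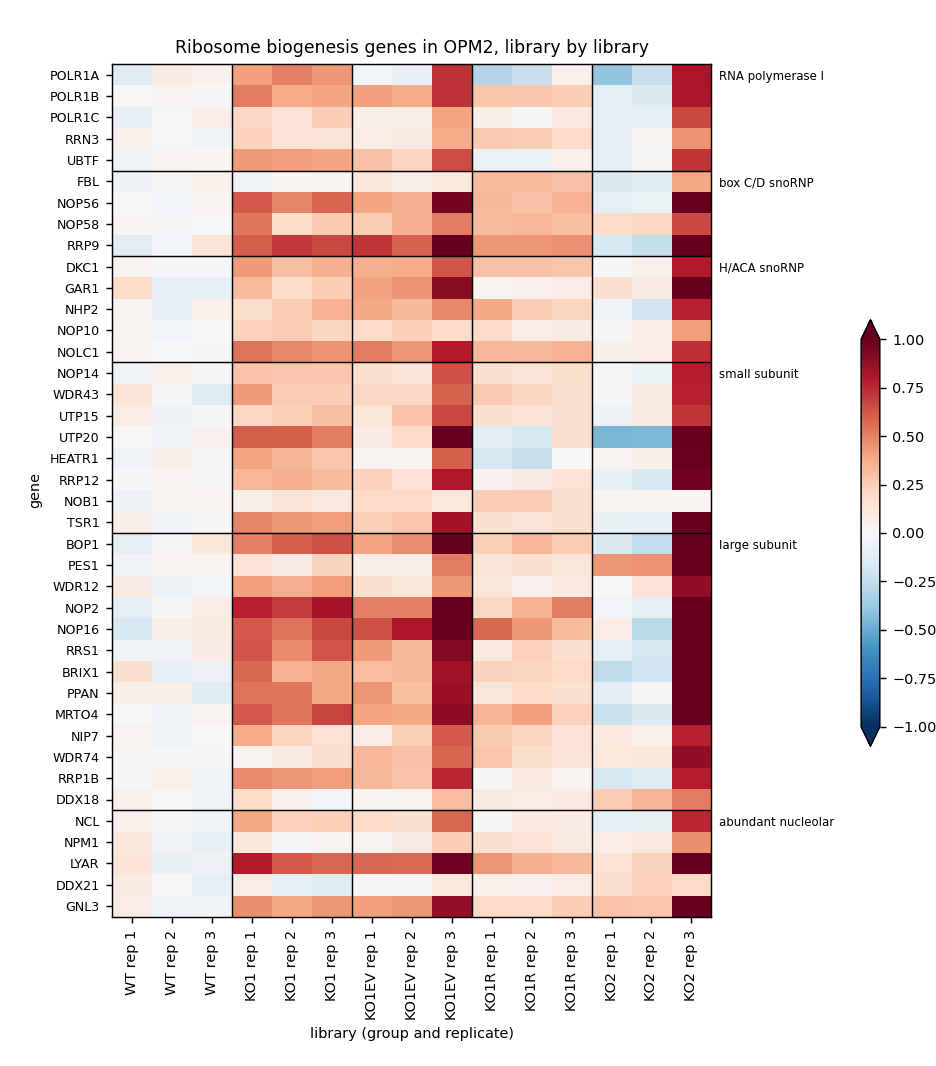
Difference of each OPM2 library (columns, 3 per group) from the WT mean for the 40 members (rows, ordered by role), as log2(FPKM + 1), with colours cut at −1 and 1. The columns of KO1 are mostly above WT, replicates 3 of KO1EV and KO2 are the darkest, and KO2 replicates 1 and 2 lie on either side of WT.

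In KO2 of OPM2, where FOXM1 transcript was lowest, the members' median lay above WT, as in KO1, but this held for replicate 3 only. The test called 2 members higher against WT (6.54% of all tested genes) and 0 lower (7.82% of all); at an unadjusted p below 0.05 limma gave 8 higher and 0 lower. The median was 0.28 beside 0.02 over all tested genes. All 40 members had a positive value, as had 5586 of the 10309 tested genes. The members' median was carried by replicate 3: relative to the WT mean it was −0.04 and −0.02 in replicates 1 and 2 and 0.81 in replicate 3. Without the 2 libraries the median was −0.05, with 6 members called higher (19.3% of all tested genes) and 8 lower (21.9% of all). With only KO2 and WT in the fit, limma called 0 in either direction, where 1.33% of all tested genes were called higher and 2.45% lower; at an unadjusted p below 0.05 it gave 4 higher and 0 lower.

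The 2 called members both belong to the large subunit. PES1, partner of BOP1 and WDR12, had 45.62, 47.96 and 48.61 FPKM in WT and 64.19, 64.97 and 101.67 in KO2. All KO2 libraries of PES1 were above WT (0.65 ± 0.16, adjusted p = 0.012), and it stayed called without the 2 libraries (0.44 ± 0.04, adjusted p = 1.63e-06). DDX18, a helicase, had 43.28, 41.68 and 40.38 FPKM in WT and 49.89, 53.1 and 59.91 in KO2 (0.37 ± 0.09, adjusted p = 0.014), and was called without the 2 libraries (0.30 ± 0.06, adjusted p = 0.000628) but not without WT replicate 3 (adjusted p = 0.0574). GNL3, known as nucleostemin, LYAR, NOP58 and DDX21 were also called higher without the 2 libraries, at 0.18 to 0.28. The 8 called lower without them were UTP20, POLR1A, BRIX1, RRP9, BOP1, MRTO4, RRP1B and FBL, at −0.45 to −0.13. Each of these 8 had a value above 0 with all libraries, so the direction for them rests on KO2 replicate 3.

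The clones of OPM2 were compared directly. KO2 against KO1 had 3 members called higher (PES1, DDX18 and DDX21; 10.8% of all tested genes) and 0 lower (19.1% of all), where limma at an unadjusted p below 0.05 also gave 3 and 0. Without the 2 libraries 3 were higher (25% of all tested genes) and 32 lower (42.7% of all). UTP20 was then lower in KO2 by the largest amount, −1.02 ± 0.09 (adjusted p = 6.39e-08), followed by RRP9 at −0.85 ± 0.07 (adjusted p = 7.13e-08). With all libraries these values were −0.43 ± 0.38 (adjusted p = 0.416) and −0.31 ± 0.34 (adjusted p = 0.51). UTP20 and RRP9 are the members in which KO2 replicate 3 stood out most (log2 differences of 1.79 and 1.63). Their values therefore depend on leaving that library out. No member was called in the same direction in both OPM2 clones against WT with all libraries. GNL3, LYAR, NOP58 and PES1 were called higher in both without the 2 libraries, against the same WT libraries. For calls alike in both clones no share over all tested genes was taken.

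KO1EV was compared with KO1 to ask what the empty vector went with, and no member was called higher (1.78% of all tested genes) or lower (3.17% of all). At an unadjusted p below 0.05 limma gave 0 in either direction. Without the 2 libraries 1 was higher (WDR74; 12.6% of all tested genes) and 13 lower (19.4% of all), with POLR1A, the largest polymerase I subunit, at −0.51 ± 0.09 (adjusted p = 0.00112) and, with all libraries, −0.25 ± 0.26 (adjusted p = 0.716). POLR1A had 6.95, 7.46 and 7.08 FPKM in KO1 and 4.85, 4.65 and 8.84 in KO1EV. KO1EV replicates 1 and 2 were below every KO1 library and replicate 3 was above them.

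Return of FOXM1 in KO1R, against KO1EV, gave no called member higher (3.1% of all tested genes) or lower (5.12% of all), and limma at an unadjusted p below 0.05 gave 0 higher and 2 lower. The median was −0.24 with all libraries and −0.10 without the 2, beside −0.06 and −0.04 over all tested genes. Relative to the WT mean the members' median was 0.16 to 0.20 in the KO1R libraries and 0.24 and 0.28 in KO1EV replicates 1 and 2. Without the 2 libraries FBL and RRN3 were called higher (9.25% of all tested genes) and 8 members lower (17.2% of all). FBL had 412.85, 398.58 and 411.08 FPKM in KO1EV and 475.8, 476.93 and 468.4 in KO1R, with no overlap (0.22 ± 0.04 without the 2 libraries, adjusted p = 0.00076; 0.22 ± 0.11 with all, adjusted p = 0.244). UBTF had 50.03, 47.24 and 64.3 FPKM in KO1EV and 38.66, 38.65 and 42.06 in KO1R, also with no overlap. The UBTF difference was −0.28 ± 0.05 without the 2 libraries (adjusted p = 0.000555) and −0.42 ± 0.17 with all (adjusted p = 0.155). RRN3, an initiation factor of polymerase I with near-identical copies in the genome, was at 0.15 ± 0.05 without the 2 libraries (adjusted p = 0.0467) and 0.05 ± 0.12 with all (adjusted p = 0.797).

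The remaining members that were highest in their roles by FPKM were not called with the vector, with or without the 2 libraries. NHP2, of the H/ACA snoRNPs, had 105.53, 101.06 and 113.29 FPKM in KO1EV and 105.21, 95.84 and 94.09 in KO1R. NOB1 had 80.64, 80.38 and 75.72 FPKM in KO1EV and 83.69, 83.73 and 78.83 in KO1R. Both overlapped between these groups. BRIX1, of the early large subunit, had 87.97, 88.92 and 127.62 FPKM in KO1EV and 82.74, 82.6 and 81.63 in KO1R, where the groups did not overlap but the difference was not called (−0.28 ± 0.26, adjusted p = 0.542).

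In Delta47 the libraries of a group lay close together, and the members split in both directions in each clone. Against WT, KO1 had 7 members called higher (28.9% of all tested genes) and 11 lower (23.7% of all), with a median of −0.02 beside 0.02 over all tested genes. Under quantile scaling the split was 4 and 13 (26.2% and 25.6% of all tested genes), and with the trend on transcript length removed it was 5 and 13 (23.5% and 24.4% of those with a length). KO2 had 12 called higher (28.4% of all tested genes) and 4 lower (15.2% of all), with a median of 0.03 beside 0.05. The KO2 split was 6 and 6 (18.2% and 21% of all) with each library centred on its median, which turned the members' median to −0.02. With the length trend removed it was 7 and 6 (21% and 21.5%), where the median was −0.00. Fold changes ran from −0.56 to 0.33 in KO1 and from −0.21 to 0.56 in KO2, with SE of 0.03 to 0.09.

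**Figure D3:**
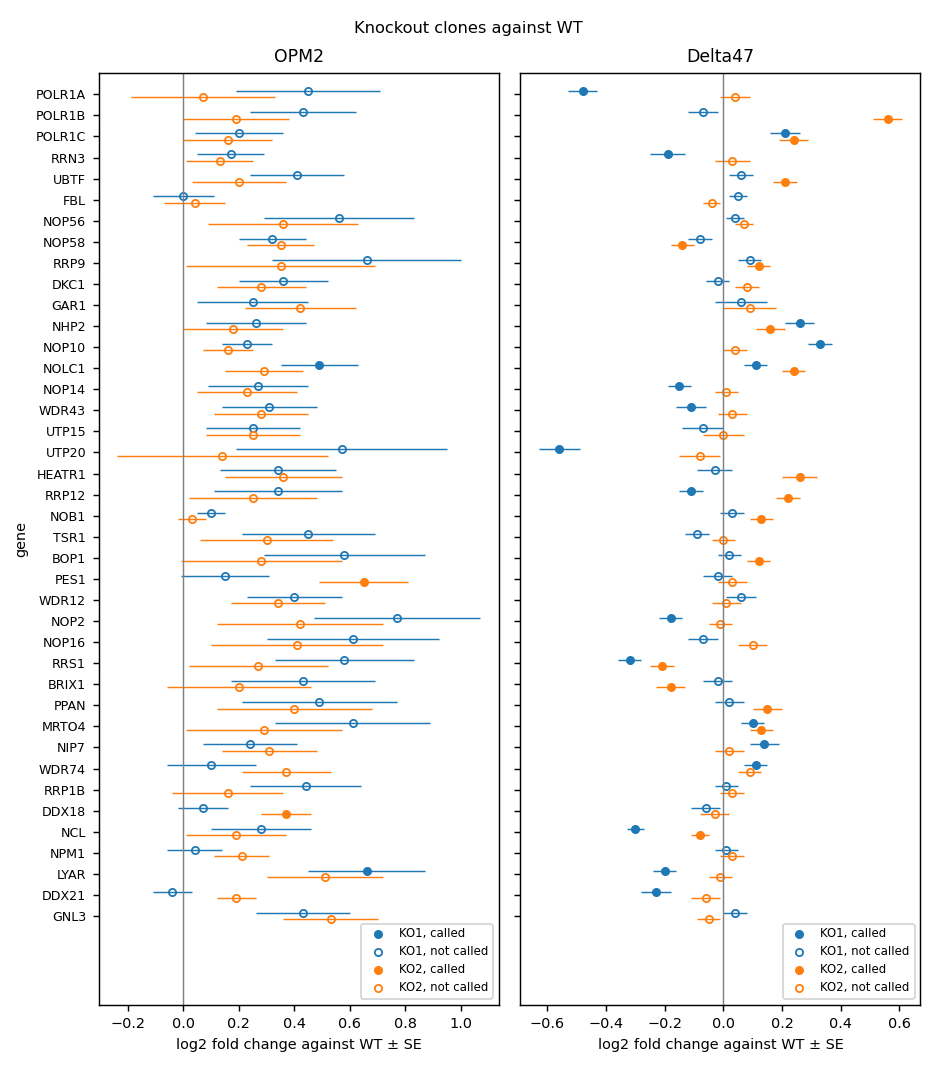
Log2 fold change against WT (x axis, ± SE of the fit) of the 40 members (y axis, ordered by role) in KO1 (blue) and KO2 (orange) of OPM2 (left) and Delta47 (right), filled where called. Errors in OPM2, 0.05 to 0.38, are wider than in Delta47, 0.03 to 0.09; the OPM2 KO1 values are nearly all above 0, and the Delta47 values fall on either side.

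POLR1C, NHP2, NOLC1 and MRTO4 were called higher in both Delta47 clones, and RRS1 and NCL lower in both. The clones share their WT libraries. The share of all tested genes called alike in both clones was not taken, so the number of such members is no result about them. POLR1C, a subunit common to polymerases I and III, had 23.13, 24.72 and 23.27 in WT, 26.47, 29.48 and 27.08 in KO1 and 29.27, 27.35 and 27.93 in KO2, all in the authors' expression value. All 6 knockout libraries were above WT, by 0.21 ± 0.05 in KO1 (adjusted p = 0.00144), and KO2 gave 0.24 ± 0.05 (adjusted p = 0.000729); the KO1 call was lost with the length trend removed (0.08, adjusted p = 0.177).

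NHP2 had 99.35, 97.24 and 105.31 in WT, 119.3, 122.77 and 119.95 in KO1 and 110.3, 112.78 and 115.19 in KO2. Its knockout libraries were all above WT (0.26 ± 0.05, adjusted p = 0.000173, and 0.16 ± 0.05, adjusted p = 0.00841). The KO1 call was lost with the length trend removed (adjusted p = 0.146) and the KO2 call with centring (adjusted p = 0.15). NOLC1 had 132.94, 134.19 and 128.27 in WT, 142.73, 141.79 and 143.72 in KO1 and 157.12, 157.57 and 154.11 in KO2. Here too no knockout library reached down to WT, with 0.11 ± 0.04 in KO1 (adjusted p = 0.0188; 0.03 and not called under quantile scaling, and not called without KO1 replicate 3 or WT replicate 3) and 0.24 ± 0.04 in KO2 (adjusted p = 7.13e-05).

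MRTO4 had 50.95, 49.62 and 49.6 in WT, 54.82, 52.63 and 54.21 in KO1 and 56.87, 55.04 and 52.88 in KO2. Its groups did not overlap, and its values were small, 0.10 ± 0.04 in KO1 (adjusted p = 0.0208) and, for KO2, 0.13 ± 0.04 (adjusted p = 0.00671). Leaving out any of KO1 replicates 1 and 3 and WT replicates 2 and 3 ended the KO1 call (adjusted p 0.0573 to 0.0803), as did quantile scaling (adjusted p = 0.202), and centring ended the KO2 call (adjusted p = 0.113). Removal of the length trend ended both (0.05, adjusted p = 0.235, and 0.07, adjusted p = 0.12).

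RRS1, which brings the smallest ribosomal RNA particle into the large subunit, had 74.98, 79.64 and 77.54 in WT, 63.01, 62.33 and 60.63 in KO1 and 64.75, 67.02 and 68.77 in KO2. Every knockout library was below WT, with −0.32 ± 0.04 (adjusted p = 1.94e-06) and −0.21 ± 0.04 (adjusted p = 0.000174). NCL, nucleolin, had 565.4, 551.63 and 535.92 in WT, 452.66, 437.92 and 456.02 in KO1 and 515.69, 531.64 and 512.01 in KO2. NCL fell in KO1 by 0.30 ± 0.03 on the log2 scale (adjusted p = 1.68e-06). Its KO2 value of −0.08 ± 0.03 was at the threshold (adjusted p = 0.0489), turned to 0.01 under quantile scaling, and was not called without KO2 replicate 1 or 3 or WT replicate 1 or 2 (adjusted p 0.107 to 0.16). It was also not called with the replicate block (adjusted p = 0.055), with no filter (adjusted p = 0.0598) or with only the 2 groups in the fit (adjusted p = 0.0572).

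In KO1 the largest falls were those of UTP20 (−0.56 ± 0.07, adjusted p = 3.92e-06) and POLR1A (−0.48 ± 0.05, adjusted p = 1.48e-06), and the largest rise was that of NOP10 (0.33 ± 0.04, adjusted p = 1.71e-06). With the length trend removed these were −0.36, −0.21 and 0.11, still called (adjusted p = 3.83e-05, 0.000717 and 0.0106). In KO2 the largest rise was that of POLR1B, the second-largest polymerase I subunit (0.56 ± 0.05, adjusted p = 6.83e-08). POLR1B had 22.15, 20.34 and 20.2 in WT, 20.04, 18.94 and 20.36 in KO1 and 31.18, 31.11 and 31.59 in KO2, so KO1 overlapped WT and KO2 lay above both. By role, the 8 small subunit genes had 0 called higher and 4 lower in KO1 and 3 higher and 0 lower in KO2. The 5 abundant nucleolar genes had 0 and 3 in KO1 and 0 and 1 in KO2. Over all tested genes 28.9% were called higher and 23.7% lower in KO1, and 28.4% and 15.2% in KO2. Of the 4 lower small subunit genes, WDR43 was at the threshold (adjusted p = 0.0497). WDR43 and RRP12 were not called with the length trend removed (adjusted p = 0.0548 and 0.184).

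Compared directly, KO2 of Delta47 had 18 members called higher than KO1 (24.9% of all tested genes) and 2 lower (17.2% of all). The split was 11 and 7 with centring (17.3% and 23.4% of all) and 13 and 4 with the length trend removed (16.7% and 18.2% of those with a length). The largest differences were in POLR1B (0.64 ± 0.05, adjusted p = 4.42e-08), POLR1A (0.51 ± 0.05, adjusted p = 1.68e-06) and UTP20 (0.48 ± 0.07, adjusted p = 3.94e-05). NOP10 was lower in KO2 than in KO1 (−0.29 ± 0.04, adjusted p = 1.37e-05). With the length trend removed POLR1A was at 0.25, UTP20 at 0.27 and NOP10 at −0.10, all still called. Also lower was BRIX1 (−0.16 ± 0.05, adjusted p = 0.022), a call lost without KO1 replicate 3 (adjusted p = 0.0937) or KO2 replicate 1 (adjusted p = 0.139). FOXM1 was at a like level in these clones.

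MYC fell in both Delta47 clones. It had 179.91, 187.04 and 185.16 in WT, 157.75, 162.28 and 157.37 in KO1 and 167.82, 164.39 and 161.48 in KO2. The knockout libraries all lay below WT, with −0.21 ± 0.03 (adjusted p = 0.000103) and −0.16 ± 0.03 (adjusted p = 0.00133). Of the MYC targets outside the nucleolus, 10 of 22 were called higher and 5 lower in KO1 and 9 and 3 in KO2, with medians of 0.084 and 0.085. Of the 122 other ribosome biogenesis genes tested, 23 were higher and 33 lower in KO1 and 25 and 14 in KO2. Their medians were −0.02 and 0.03. Over all tested genes 28.9% were called higher and 23.7% lower in KO1, and 28.4% and 15.2% in KO2, with medians of 0.02 and 0.05. The part of MYC in these counts was not tested. MDN1, a giant ATPase of large subunit assembly, fell in KO1 by 0.65 ± 0.06 on the log2 scale (adjusted p = 4.71e-07).

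With the FOXM1c vector in Delta47, most called members were lower. KO2R against KO2 had 9 members called higher (25.2% of all tested genes) and 22 lower (36.8% of all), with a median of −0.17 beside −0.05 over all tested genes. Fold changes ran from −0.81 to 0.56. With each library centred on its median the split was 13 and 18 (36% and 25.9% of all), and the members' median was −0.07. With the length trend removed it was 12 and 20 (28.3% and 28.5% of those with a length), and the median was −0.09. The empty-vector group was not analysed here, so FOXM1, the vector and the sorting cannot be told apart in this comparison. HSPA8 and DDIT3 also moved, HSPA8 from 3428.49 to 3540.09 in KO2 to 3909.84 to 3957.48 in KO2R and DDIT3 from 6.41 to 9.55 to 11.07 to 12.86, and their part was not tested.

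POLR1A had 11.81, 11.3 and 11.56 in KO2 and 5.71, 6.22 and 6.54 in KO2R, a fall of 0.81 on the log2 scale (SE 0.05, adjusted p = 3.47e-09). The KO2R libraries of POLR1A also lay below the WT range of 10.99 to 11.52. UBTF had 56.7, 55.6 and 51.91 in KO2 and 36.16, 38.89 and 37.26 in KO2R (−0.54 ± 0.04, adjusted p = 3.76e-08), again below WT, at 44.58 to 48.37. RRP12, needed for export of the subunits, had 65.8, 61.55 and 65.68 in KO2 and 38.04, 39.81 and 39.42 in KO2R (−0.70 ± 0.04, adjusted p = 4.28e-10). Its WT libraries were at 54.42 to 55.97. With the length trend removed the values were −0.41 for POLR1A, −0.38 for UBTF and −0.52 for RRP12, all still called.

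NOP10 rose most, with 167.44, 165.02 and 163.14 in KO2 and 255.77, 242.61 and 231.73 in KO2R (0.56 ± 0.04, adjusted p = 5.02e-09). Its WT libraries, at 159.42 to 162.5, were just below KO2 and far below KO2R. NHP2, in the same snoRNP, rose by 0.49 ± 0.05 (adjusted p = 1.65e-07), while GAR1, also of that snoRNP, fell by 0.37 ± 0.09 (adjusted p = 0.00195). POLR1C rose by 0.43 ± 0.05 (adjusted p = 1.03e-06), against the falls of POLR1A, POLR1B, UBTF and RRN3 in its group. With the length trend removed NOP10 was at 0.12, NHP2 at 0.14, GAR1 at −0.58 and POLR1C at 0.29, all still called.

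The highest members by value in the other roles moved less. FBL had 541.86, 562.12 and 581.18 in KO2 and 548.2, 537.84 and 535.46 in KO2R, which overlapped, and NOB1 had 73.06, 77.11 and 76.17 in KO2 and 74.58, 77.94 and 74.29 in KO2R, which overlapped too. PES1 had 91.84, 94.56 and 89.75 in KO2 and 82.76, 79.0 and 77.95 in KO2R without overlap (−0.20 ± 0.05, adjusted p = 0.00123; not called with centring, adjusted p = 0.107). NPM1 had 630.76, 669.94 and 652.31 in KO2 and 748.83, 733.73 and 817.72 in KO2R (0.23 ± 0.04, adjusted p = 0.000128), and turned to −0.04 under quantile scaling.

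Of the 12 members called higher in KO2 than in WT, 8 were called lower in KO2R than in KO2 and 3 higher; of the 4 called lower in KO2, 1 was called higher in KO2R and 2 lower. The comparisons of KO2 with WT and of KO2R with KO2 share the KO2 libraries, so a like or opposite sign between them is no independent evidence. Over all tested genes 25.2% were called higher and 36.8% lower in KO2R against KO2. The matching shares among all genes called in KO2 against WT were not taken, so these counts are no result about the members. POLR1B, UBTF, RRP9, NOLC1, HEATR1, RRP12, BOP1 and PPAN were called higher in KO2 and lower in KO2R, of which HEATR1 turned to 0.15 and POLR1B lost its KO2R call (−0.01) with the length trend removed. The KO2 calls of RRP9, BOP1 and PPAN, at 0.05 to 0.09 with that trend removed (adjusted p = 0.275, 0.293 and 0.184), were lost in that fit and also under centring and quantile scaling. The KO2R call of HEATR1 was also lost under quantile scaling (adjusted p = 0.143), centring (adjusted p = 0.282) and no filter (adjusted p = 0.0563). Leaving out KO2R replicate 1 or any 1 KO2 library ended it too (adjusted p 0.053 to 0.136). BRIX1 was called lower in KO2 (−0.18 ± 0.05, adjusted p = 0.0115; not called without KO2 replicate 1) and higher in KO2R (0.22 ± 0.05, adjusted p = 0.00172). RRS1 and NCL, lower in KO2, were lower again in KO2R, at −0.46 ± 0.04 (adjusted p = 2.33e-08) and −0.32 ± 0.03 (adjusted p = 4.81e-07). POLR1C, NHP2 and MRTO4, higher in KO2, were higher again in KO2R.

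**Figure D4:**
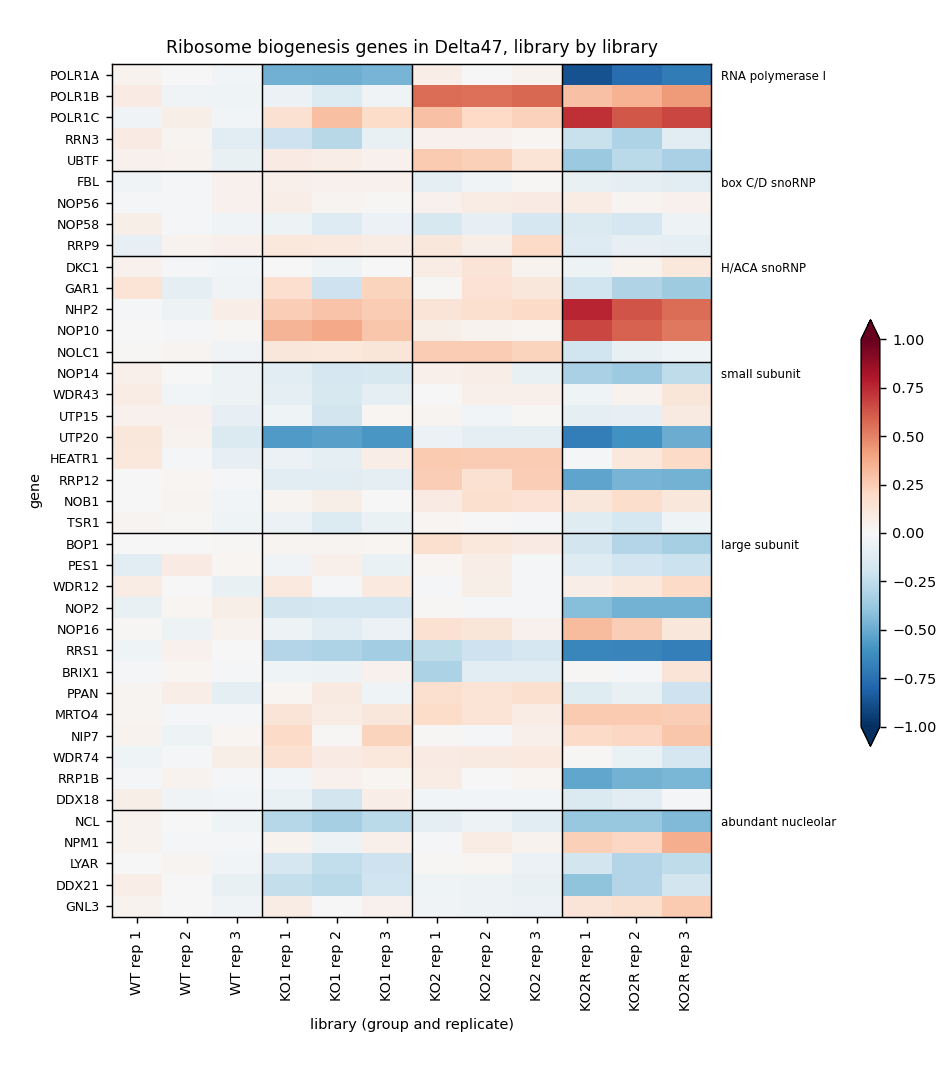
Difference of each Delta47 library (columns, 3 per group) from the WT mean for the 40 members (rows, ordered by role), as log2(authors' expression value + 1), with colours cut at −1 and 1. Libraries of a group look alike, and KO2R holds the strongest differences in each direction, POLR1A among the lower and NOP10 and NHP2 among the higher.

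Fold changes went with transcript length in several comparisons. Over the 40 members the Spearman rho between length and the KO2R against KO2 log2 fold change was −0.48, and it was −0.55 over all 10804 tested genes that had a length. For KO1 against WT the values were −0.49 and −0.40, for KO2 against WT −0.09 and −0.07, and for KO2 against KO1 0.55 and 0.44. NOP10 and NHP2, which rose, have the shortest transcripts, of 554 and 732 bases, and POLR1A and UTP20, which fell, the longest, of 12749 and 9025. WDR12, at 8100 bases, did not follow (0.11 ± 0.05, not called). In OPM2 the strongest relation was that of KO1EV against KO1, with −0.45 over the members and −0.33 over all 10213 tested genes that had a length. The other OPM2 values were 0.13 and 0.05 in KO1 against WT, −0.17 and −0.13 in KO2 against WT, −0.21 and −0.14 in KO2 against KO1, and −0.12 and −0.09 in KO1R against KO1EV. These correlations are descriptions over genes of the same libraries, and the part of length in the results was not tested. How transcripts were counted is not given in the sources used here.

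**Figure D5:**
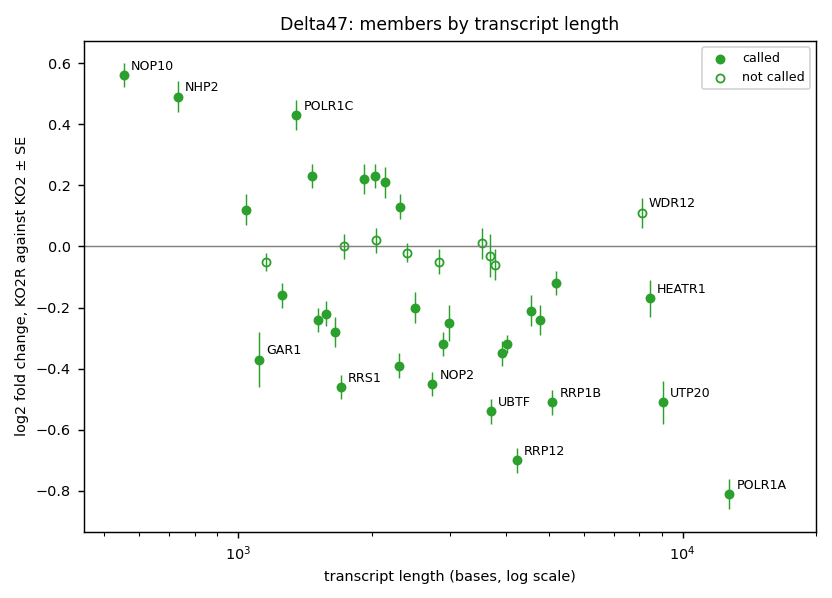
Log2 fold change of KO2R against KO2 in Delta47 (y axis, ± SE of the fit) for each member by its transcript length in bases (log x axis), filled where called. The shortest transcripts (NOP10, NHP2) are highest and the longest (POLR1A) lowest, with a Spearman rho of −0.48 over 40 members.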

How the data were processed

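The authors deposited 1 table of FPKM values for OPM2, per the file headers, and 1 table of expression values for Delta47 whose header names no unit; the deposited Delta47 values were treated as a signal. Poly-A RNA was sequenced as paired ends on a DNBseq instrument, per the labels' protocols, and the genome build was hg19, per the submitters' processing notes. Which aligner and counter were run is not given in the sources used here. Of 30 samples, 27 were used: 3 Delta47 columns of per-sample values matched no single sample by name, and the KO2R columns were matched by the letter R, which no other Delta47 samples carry.

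Values were analysed as log2(value + 1), with a pseudocount of 1. The fit took genes whose value reached 1 in 3 or more libraries and was made per line over all groups with limma-trend (limma 3.58.1, R 4.3.3; two-sided), adjusted by Benjamini-Hochberg over all tested genes, with calls at an adjusted p below 0.05. The log2(value + 1) scale of the fold changes understates low genes. Tables of the lines were never compared by level. No counts were used. The fit was tested on simulated data.

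Members, gene lists, comparisons and the pair of libraries left out were chosen with earlier results of these data known. Named in detail were FOXM1, MYC, up to 6 members per line called alike in both clones, the 4 largest calls per vector comparison and the highest member of each role; DDIT3 and HSPA8 stand beside results touched by libraries that stand apart. Other lists are given by counts, with at most 3 genes named. Transcript lengths are medians of GENCODE v29 transcripts with a RefSeq match, a definition chosen after seeing the data, and covered 99.1% of tested genes in OPM2 and 98.2% in Delta47. Alternatives were a replicate block, quantile scaling, median centring, a pseudocount of 0.1, no filter, a fit of only the 2 groups compared, removal of the length trend, and leaving out libraries.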

Additional observations from a re-analysis of the deposited data

Results flagged for a closer look

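RRP12 differed between the Delta47 clones. It was called lower than WT in KO1 (−0.11 ± 0.04, adjusted p = 0.0198) and higher in KO2 (0.22 ± 0.04, adjusted p = 0.000143), and the test of KO2 against KO1 gave a log2 difference of 0.32 ± 0.04 (adjusted p = 3.91e-06). The KO1 call was lost without KO1 replicate 1 (adjusted p = 0.0602), without WT replicate 2 (adjusted p = 0.0673) and with the length trend removed (adjusted p = 0.184).

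NOP58, a core protein of box C/D snoRNPs, lay on opposite sides of WT in the lines. All 6 OPM2 knockout libraries were above every WT library, with log2 fold changes of 0.32 in KO1 and 0.35 in KO2, and all 6 Delta47 knockout libraries were below, with −0.08 in KO1 and −0.14 in KO2. With all libraries only the value of KO2 in Delta47 was called among these 4 (adjusted p = 0.00967). Without OPM2 KO2 replicate 3 and KO1EV replicate 3, KO1 (0.32 ± 0.06, adjusted p = 0.00059) and KO2 (0.19 ± 0.07, adjusted p = 0.0436) of OPM2 were called higher. The difference between the lines was not tested, since the tables were normalized separately.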

How the results depend on the processing

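Depth is unknown, so counting error is not known, and each group has 3 libraries. The OPM2 counts depended most on which libraries entered the fit. With only the 2 groups compared, members called higher were 34 in KO1 against WT (2 with all groups), 0 in KO2 against WT (2), 0 in KO2 against KO1 (3), and 1 higher and 2 lower in KO1R against KO1EV (0 and 0). Without KO2 replicate 3 and KO1EV replicate 3 they were 35 higher in KO1 against WT, 6 higher and 8 lower in KO2 against WT, 32 lower in KO2 against KO1, 1 higher and 13 lower in KO1EV against KO1, and 2 higher and 8 lower in KO1R against KO1EV. With no filter 1 was higher in KO1 against WT, and with the length trend removed 4 in KO2 against WT.

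Most samples with the same replicate number did not deviate together. Their correlations ran from −0.20 to 0.75 in OPM2 (9 of 30 above 0.1) and from −0.22 to 0.20 in Delta47 (4 of 18 above 0.1). Samples with unlike numbers gave −0.74 to 0.62 in OPM2 and −0.28 to 0.29 in Delta47, so the numbers were not taken as pairs. KO2 replicate 3 and KO1EV replicate 3 of OPM2 did deviate alike, with a Spearman rho of 0.83 over the members and 0.72 over all tested genes. Whether these libraries shared a step of handling was not tested. With the replicate block, 4 members were called higher in OPM2 KO1 against WT (1827 of the 10309 tested genes), and the other member counts stayed within 1.5 times.

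Leaving out 1 library at a time gave 0 higher and 0 lower in OPM2 KO1 against WT, in KO1EV against KO1 and in KO1R against KO1EV. It gave 1 to 5 higher and 0 to 1 lower in KO2 against WT. In KO2 against KO1 it gave 0 to 3 higher and 0 to 28 lower (28 without KO2 replicate 3). Over all 10309 tested genes, KO1 against WT then had 816 to 1025 higher and 408 to 484 lower (1494 and 693 with all libraries). The ranges were 375 to 1457 and 562 to 1674 in KO2 against WT. They were 86 to 233 and 160 to 364 in KO1EV against KO1, and 197 to 236 and 227 to 364 in KO1R against KO1EV. Without KO2 replicate 3, KO2 against KO1 had 2292 higher and 3978 lower (1118 and 1968 with all libraries). In Delta47 leaving out 1 library gave 3 to 8 members higher and 8 to 11 lower in KO1 against WT (3 without KO1 replicate 3, 4 without KO1 replicate 1 or WT replicate 2). The ranges were 9 to 12 and 2 to 4 in KO2 against WT (2 lower without KO2 replicate 1). They were 14 to 16 and 1 to 3 in KO2 against KO1 (1 lower without KO1 replicate 3 or KO2 replicate 1), and 8 to 9 and 20 to 22 in KO2R against KO2. Over all 11001 tested genes the ranges were 2784 to 2987 higher and 2246 to 2484 lower in KO1 against WT. They were 2618 to 2812 and 1462 to 1517 in KO2 against WT. KO2 against KO1 had 2184 to 2433 and 1562 to 1665, and KO2R against KO2 had 2492 to 2646 and 3707 to 4005.

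In Delta47, quantile scaling gave 4 higher in KO1 against WT. Centring gave 6 higher in KO2 against WT, and 11 higher and 7 lower in KO2 against KO1. Removal of the length trend gave 7 higher in KO2 against WT and 4 lower in KO2 against KO1. KO2 against KO1 had 1 lower with no filter and 5 lower with only the 2 groups. Over all genes in those fits 1754 and 2091 were called lower.

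Some single members reversed, given here with the highest value on leaving out a single library. A member is listed where its sign turned and it was called before or after the change. The OPM2 members listed were not called with all libraries. Without the 2 libraries, KO2 against WT in OPM2 gave POLR1A −0.30 (0.30), FBL −0.13 (0.13; also −0.13 without KO2 replicate 3 alone), RRP9 −0.20 (0.64), UTP20 −0.45 (0.44), BOP1 −0.19 (0.55), BRIX1 −0.22 (0.43), MRTO4 −0.18 (0.55) and RRP1B −0.15 (0.33). KO2 against KO1 gave FBL −0.14 (0.13; also −0.14 without KO2 replicate 3 alone), HEATR1 −0.29 (0.19), NIP7 −0.17 (0.19) and GNL3 −0.15 (0.23), and KO1EV against KO1 gave NOP56 −0.19 (0.11), NOP14 −0.13 (0.12), RRP12 −0.15 (0.18) and RRP1B −0.14 (0.10). In Delta47 with the length trend removed, KO1 against WT gave FBL −0.11, HEATR1 0.16, WDR74 −0.03 and NPM1 −0.11, KO2 against KO1 gave RRP1B −0.10, and KO2R against KO2 gave HEATR1 0.15, TSR1 0.11 and NOP16 −0.11. Quantile scaling gave NCL 0.01 in KO2 against WT, FBL 0.08 in KO2 against KO1 and NPM1 −0.04 in KO2R against KO2. Of the Delta47 members listed, FBL, HEATR1 and NPM1 in KO1 against WT were not called before the change, nor were RRP1B and FBL in KO2 against KO1. After the change WDR74 (adjusted p = 0.474), NCL (adjusted p = 0.872) and NPM1 in KO2R against KO2 (adjusted p = 0.569) were not called. For these reversals the cause was not tested beyond the libraries, trend or scaling that each setting changes.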
